A study of Mus musculus with 12 samples.

Results

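The data described here are the transcriptome of control natural killer (NK) cells from mouse bone marrow, in 3 of the 12 RNA sequencing libraries of a study on Id2 and Tcf7. The members are the libraries labelled Ctrl, replicates 1, 2 and 3, and no other group is compared. NK cells positive for NK1.1 and CD49b were sorted from C57Bl/6 mice straight into lysis buffer. One protocol line writes the second marker as CD9b. The controls carried floxed alleles and no Cre: the study's overview gives them as Id2F/F or Id2F/F Tcf7F/F and the protocol as Id2F/F alone, and the labels do not say which library had which genotype. Animal age and the number of animals behind a library are not given in the sources used here, so the spread between the 3 samples may be technical or biological. The sort as described names NK1.1 and CD49b and no marker for excluding another cell type.

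NK cells are lymphocytes that kill infected or transformed cells without a rearranged antigen receptor. They read a balance of activating and inhibitory surface receptors, release granules that hold perforin and granzymes, and secrete chemokines and interferon gamma. The bone marrow is where they develop under interleukin 15, from CD27-positive immature stages to KLRG1-positive and CD11b-positive mature ones. T-bet, EOMES, ID2 and TCF-1 are transcription factors of that path.

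The values are FPKM, which divide a gene's fragments by its length and by the library's total, as the authors deposited them. The library sizes behind them were 16208743, 13977524 and 16315209 reads for Ctrl replicates 1, 2 and 3, and 3 values given in a row below follow that order. Of 37991 genes in the table, 8824 reached an FPKM of 1 or more in all 3 libraries, the condition termed detected here, and 7836 of those were among the 20230 protein-coding genes. Ranks are by mean FPKM among these 20230 genes. The length behind an FPKM bears on comparisons between genes. For 11287 genes with several annotated transcripts it was at the median 1.67 times the union of the gene's exons, and for genes with 1 transcript 1.0 times. A second level per union of exons, named the exon-union level here, was therefore computed for each gene. It differed from the FPKM by more than 1.5 times for 4805 of 7834 detected protein-coding genes with a known exon union, being higher for 3821 and lower for 984. It is printed for some of the genes below, mainly where it turns an order that the text gives, and a gene printed without it may differ as much. Spread between libraries does not depend on this length.

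The 3 libraries differed in transcripts of other cell types and in several groups of genes, and this bears on the results that follow. Ctrl replicate 2 was high in red cell, platelet and most neutrophil transcripts. Immediate early genes were high in Ctrl replicate 3, and most basophil and cell cycle genes in Ctrl replicate 1. As a background for such counts, Ctrl replicates 1, 2 and 3 were the highest library for 29.1%, 35.5% and 35.4% of detected protein-coding genes. In the same order they were the lowest library for 2451, 3022 and 2363 of these 7836 genes. Ctrl replicate 1 also held Y-linked transcripts and nearly no Xist, while the other 2 held Xist and no Y-linked transcript. Values of each library are therefore given beside the means, and the lists concerned are described at the end. In bulk RNA, fewer cells of a type and less RNA per cell cannot be told apart.

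The sequences just before the transcription start are shown for 7 genes, to set NK lineage genes beside genes that most cells express. They are the 100 bases before a RefSeq start on GRCm38.p6, 5′ to 3′ on the gene's strand, and capitals mark CG dinucleotides and the letters TATAA.
Gzma, chr13:113100982-113101081, minus strand: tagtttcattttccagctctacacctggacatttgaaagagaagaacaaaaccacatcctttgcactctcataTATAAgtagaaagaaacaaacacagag
Ncr1, chr7:4337624-4337723, plus strand: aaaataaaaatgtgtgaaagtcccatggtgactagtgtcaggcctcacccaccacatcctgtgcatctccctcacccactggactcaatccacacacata
Klra8, chr6:130129899-130129998, minus strand: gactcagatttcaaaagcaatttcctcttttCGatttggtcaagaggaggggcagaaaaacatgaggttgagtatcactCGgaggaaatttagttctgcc
Klra4, chr6:130067272-130067371, minus strand: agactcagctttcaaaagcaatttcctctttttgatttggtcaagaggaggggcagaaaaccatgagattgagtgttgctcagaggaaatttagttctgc
Eomes, chr9:118478089-118478188, plus strand: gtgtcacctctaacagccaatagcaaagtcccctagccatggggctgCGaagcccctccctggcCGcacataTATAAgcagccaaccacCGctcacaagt
B2m, chr2:122147587-122147686, plus strand: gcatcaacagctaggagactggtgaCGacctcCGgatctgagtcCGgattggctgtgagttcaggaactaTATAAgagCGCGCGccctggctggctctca
Rps27, chr3:90213649-90213748, minus strand: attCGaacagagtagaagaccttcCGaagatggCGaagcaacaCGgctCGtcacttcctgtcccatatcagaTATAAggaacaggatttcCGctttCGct

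No CG stood in these bases for Gzma, Ncr1 or Klra4, against 2 for Klra8, 3 for Eomes, 6 for B2m and 7 for Rps27. Of NK genes looked at and not shown, Klrb1c had 0, Nkg7 1, Fcer1g 4, the sort marker Itga2 5 and Id2 9. A low count was thus not common to all NK genes looked at, and Id2 had more than B2m and Rps27. The Ly49 promoters of Klra8 and Klra4 were alike in 91 of 99 bases when shifted by 1 base. Over all 15585 protein-coding genes matched to a RefSeq promoter, the median was 6 CG in these 100 bases and 13.2% had none. Genes below FPKM 1 in all 3 libraries had a median of 2, and 22.7% had none. Detected genes had a median of 9 at a mean below 10 FPKM and also 9 between 10 and 100 FPKM, and 8 at 100 or more. The 9 detected Ly49 genes with a promoter in the table had a median of 0 CG, and 5 of the 9 had none. The 54 detected genes of 6 lists (NK identity, granule, Ly49, NKR-P1, CD94 and NKG2, chemokines) had a median of 1 CG, below the medians of all 4 level classes just given. TATAA, searched on both strands, stood in 9.54% of all these 100-base windows, in 14.8% for genes below FPKM 1 in all 3 libraries, in 3.47% for detected genes below 10 FPKM, in 5.20% from 10 to 100 and in 15.1% at 100 or more. Its share was thus about as high in the lowest class as in the highest. These are matches of letters and say nothing of factor binding.

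By level, NK effector genes stood among the most abundant messages of the libraries. These are bulk values. The part of other cell types in any message, Tyrobp and Fcer1g included, was not tested. The 20 highest protein-coding genes fell into 5 kinds: mitochondrially encoded mt-Co1, mt-Nd1, mt-Cytb, mt-Nd4 and mt-Nd5; ribosomal Rps27, Rpl32, Rpl4 and Rpl37a; the class I light chain B2m, the actin gene Actb and Tmsb4x, whose product binds actin; the NK genes Tyrobp, Fcer1g, Gzma, Ccl5 and Nkg7; and Hbb-bs, Hbb-bt and S100a8, genes of red cells and neutrophils. B2m, the light chain of MHC class I, was the highest nuclear protein-coding gene at 5056, 4393 and 5094 FPKM. Tyrobp, the signalling adaptor DAP12, stood at 1041, 1409 and 1352 and Fcer1g, the Fc receptor gamma adaptor, at 755, 909 and 806. The highest library of each of these 3 genes was less than 1.5 times its lowest. The exon-union level kept Tyrobp, Fcer1g, Gzma, Ccl5 and Nkg7 within rank 10 to 17 and raised Actb from rank 19 to 5, with 2199 in place of 661 FPKM. It lowered Rps27 from rank 7 to 29 and Rpl37a from 17 to 60. The place of Hbb-bs and S100a8 among the 20 rested on some libraries: within Ctrl replicates 1, 2 and 3 Hbb-bs ranked 46, 7 and 49, and S100a8 ranked 17, 9 and 51. Gzma, by contrast, ranked 15, 18 and 16, and Ccl5 19, 21 and 13. The 20 highest nuclear protein-coding genes made up 14.1%, 17.6% and 15.5% of all nuclear protein-coding FPKM, and the 500 highest 51.7%, 53.8% and 53.0%.

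**Figure D1:**
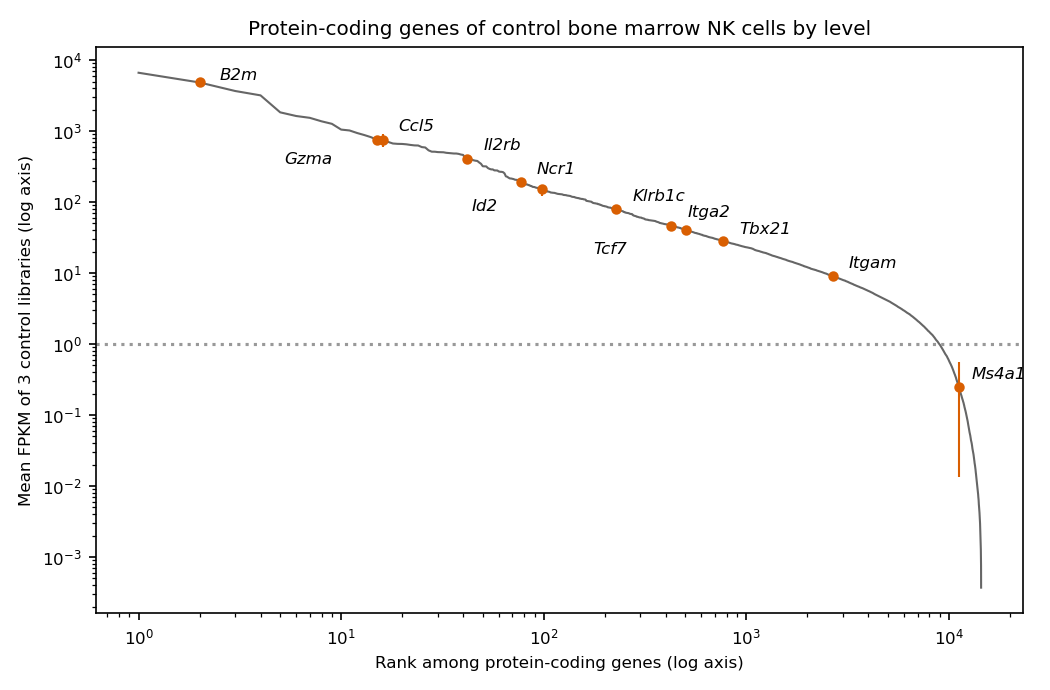
Mean FPKM of 3 control libraries (log axis) against rank among protein-coding genes (log axis). Orange points are named genes and their vertical lines run from the lowest to the highest library. B2m is at rank 2, Gzma and Ccl5 at ranks 15 and 16, and the B cell gene Ms4a1 lies below the dotted line at FPKM 1.

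All 13 genes of the NK identity list were detected, with a median of 124 FPKM against 5.75 over detected protein-coding genes. Gzma, granzyme A, stood at 702, 807 and 761 FPKM (mean 757 ± 52.9 SD, n = 3, rank 15). Ccl5, a chemokine stored and released by NK and memory T cells, stood at 595, 746 and 905 (749 ± 155, rank 16). Nkg7, a granule membrane protein, stood at 733, 606 and 640. These 3 were the highest of the list in each library, though their order among themselves differed between libraries. Ncr1, the activating receptor NKp46 that marks the lineage, stood at 203, 168 and 204 FPKM (192 ± 20.8, rank 77) and its exon-union level was 368. Klrb1c, which encodes the NK1.1 antigen used for the sort, stood at 68.6, 83.4 and 85.5 (79.2 ± 9.26, rank 228), with an exon-union level of 225 at rank 82. Itga2, the integrin chain CD49b also used for the sort, stood at 52.3, 43.5 and 44.3 (46.7 ± 4.84, rank 425), with an exon-union level of 27.6 at rank 1070. The transcripts of both sort markers were thus present in every library, at levels whose order did not depend on the length used. Il2rb, the receptor chain shared by interleukins 2 and 15, was the fourth member at 417, 345 and 457. Eomes, a T-box factor of NK development, stood at 45.5, 42.2 and 54.4, above its relative Tbx21 (T-bet) at 29.0, 24.0 and 31.3, in all 3 libraries and by both lengths. The lowest member was Cd244a, the SLAM family receptor 2B4, at 17.8, 18.6 and 15.8. The median coefficient of variation (CV, the SD as a percent of the mean) was 11.3% over the list against 20.8% over detected protein-coding genes. CV depended on level, and for protein-coding genes it was 16.6% from 20 to 100 FPKM and 18.3% at 100 or more. No member of the list ranged over 2-fold between libraries, against 11.6% and 18.6% of genes in those level classes.

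**Figure D2:**
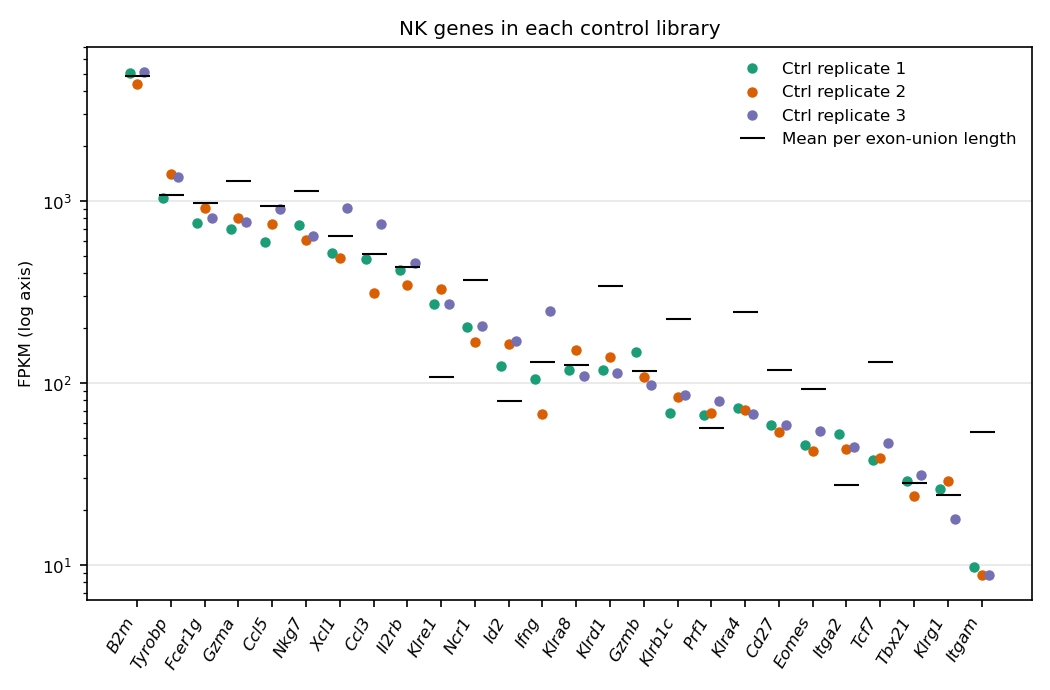
FPKM (log axis) of 26 NK genes in each control library, 1 coloured point a library, ordered by mean; black dashes are the mean recomputed per union of exons. For Ifng, Ccl3 and Xcl1 the point of Ctrl replicate 3 lies highest; Itgam rises from 9.08 to 53.6 and Klrd1 from 124 to 340 when the length is the union of exons.

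Among receptors, Ly49 genes encode lectin-like receptors for MHC class I, most of them inhibitory and some activating. Of 13 measured, 11 were detected, 8 had a mean of 10 or more and 2 of 100 or more. Klra8, the activating receptor Ly49H, was the highest intact gene by FPKM at 117, 152 and 109. Klra4 (Ly49D, also activating) stood at 72.8, 70.5 and 67.6, Klra7 (Ly49G) at 61.5, 30.5 and 37.9, and Klra9 (Ly49I) at 33.2, 44.2 and 29.2. The order of Klra8 and Klra4 turned with the length: per union of exons Klra4 had 246, Klra7 167, Klra8 126 and Klra9 87.4. Klra1 and Klra3 (Ly49A and Ly49C) stood at 9.89, 14.8 and 8.15, and at 8.25, 12.8 and 6.15, below each gene just named in every library. Klra17 was near 0, at 0.542, 0 and 0.0414. The segment annotated as a pseudogene, Klra13-ps, had 167, 133 and 114. Ly49 genes are near-identical in parts, so reads may have been split or lost among them and levels within the family are uncertain. Ctrl replicate 3 was the highest library for 0 of 11 detected members and the lowest for 9, while for detected protein-coding genes as a whole it was lowest for 2363 of 7836.

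The list of CD94, NKG2 and related lectin receptors, in which CD94 pairs with NKG2A or NKG2C to read the class Ib molecule Qa-1, had 9 of 10 members detected. Klre1, an NK receptor that pairs with KLRI proteins, stood at 270, 327 and 270 FPKM and Klrd1, CD94 itself, at 118, 140 and 114. By exon-union level the order was reversed, 108 for Klre1 and 340 for Klrd1. Klri2, an activating partner of Klre1, stood at 143, 158 and 191 and the inhibitory Klri1 at 29.7, 15.4 and 23.3. The inhibitory partner of CD94, Klrc1 (NKG2A), stood at 48.3, 38.5 and 42.0. It was above the activating Klrc2 (NKG2C) at 10.9, 11.2 and 9.28 in every library and by both lengths. Klrk1, the stress receptor NKG2D, was the steadiest gene of the identity list at 68.7, 66.1 and 69.3 (CV 2.50%). Klrg1, a marker of late maturation, stood at 26.1, 28.9 and 17.8.

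NKR-P1 receptor genes lie beside the Clr genes, and some of these receptors bind Clr products. Klrb1f, the gene of NKR-P1F, was the highest at 141, 143 and 104 FPKM. Klrb1a and Klrb1b stood at 30.3, 40.7 and 46.5, and at 26.0, 35.6 and 38.7. Clec2d, the ligand Clr-b that restrains NK cells, varied most among the abundant members, at 81.7, 139 and 53.3. Clec2i, another ligand, stood at 6.84, 6.62 and 6.29, while Clec2e, Clec2f and Clec2h were listed at 0 in all 3 libraries. By exon-union level Klrb1c, at 225, passed Klrb1f at 158.

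Of 25 measured other activating and inhibitory receptors 21 were detected. Cd7, a surface glycoprotein of T and NK cells, stood at 126, 85.4 and 121 FPKM and Cd48, the ligand of 2B4, at 65.5, 59.3 and 60.3. Of the receptors that share CD155 as a ligand, Cd96 stood at 49.5, 29.0 and 61.3, Tigit at 47.0, 39.5 and 40.9, and Cd226 (DNAM-1, activating) at 20.8, 17.3 and 20.4. Cd226 was thus lower than both of the others in each library. Fcgr3, the Fc receptor CD16 for antibody-directed killing, stood at 6.75, 10.9 and 6.45. The checkpoint receptors Lag3, Havcr2, Ctla4 and Pdcd1 lay low, the highest single value among them being 3.53 for Lag3 in Ctrl replicate 1. Cd69, an early activation antigen, stood at 61.4, 24.8 and 77.7 and was lowest in Ctrl replicate 2, as were most immediate early genes.

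Adaptors carry the signal of activating receptors that lack a signalling tail. Of 28 measured, 25 were detected, and Tyrobp and Fcer1g stood far above the next member, the phosphatase gene Ptprc (CD45), at 90.6, 76.6 and 107. Hcst, the adaptor DAP10 of NKG2D, stood at 70.5, 59.2 and 102 FPKM. Cd247, the CD3 zeta chain that also serves NKp46 and CD16, stood at 9.83, 6.32 and 9.88. Lck, a Src family kinase, stood at 22.3, 20.4 and 29.2, Zap70 at 11.8, 12.02 and 15.3, and Syk at 8.08, 5.19 and 8.37, so Zap70 was above Syk in all 3. Those 2 are the kinases that bind phosphorylated receptor tails. The highest library was Ctrl replicate 3 for 14 of the 25 (56.0%, against 35.4% of detected protein-coding genes).

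The granule list was led by Gzma and Nkg7, whose values are given above. Gzma was the higher in 2 of the 3 libraries, and by exon-union level they had 1293 and 1128. Of 28 measured genes 23 were detected. Gzmb, granzyme B, stood at 148, 108 and 97.2 FPKM and Prf1, perforin, at 66.2, 68.6 and 79.1, both far below Gzma in each library. Gzmc stood at 2.91, 0.0766 and 0.328, Gzmk at 5.52, 3.00 and 2.70, and Gzmm at 3.12, 7.15 and 1.45, which left granzymes other than A and B at low levels with a wide spread. Gzmd, Gzme, Gzmf and Gzmg were listed at 0 in all 3 libraries. Ctsw, a cathepsin of killer cells, stood at 182, 196 and 234, and the granzyme inhibitor Serpinb9 at 36.4, 34.1 and 36.7. Granule release genes were lower: Rab27a, which docks granules, stood at 23.8, 9.78 and 35.2, Lyst, the lysosomal trafficking regulator, at 11.5, 12.1 and 13.4, and Unc13d, the priming factor Munc13-4, at 3.13, 2.48 and 3.04. The exon-union level of Unc13d was higher, at 13.2. Fasl, a death ligand, stood at 28.0, 25.9 and 46.4.

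Chemokine genes held 4 messages with a mean of 100 FPKM or more, and all 4 were highest in Ctrl replicate 3, as was Ifng. Xcl1, lymphotactin, which draws cross-presenting dendritic cells, stood at 519, 483 and 915 FPKM (639 ± 239). Ccl3 and Ccl4, the macrophage inflammatory proteins, stood at 482, 310 and 746, and at 132, 123 and 182. Ccl5, given above, differed from these 3 in being lowest in Ctrl replicate 1. Whether Ccl3 and Ccl4 shared reads with similar sequences was not tested. The other 9 measured chemokines had means of 21.1 or less, Ccl9 being the highest, and Ccl22 was listed at 0. Without Ctrl replicate 3, Xcl1 and Ccl4 ranged from 483 to 519 and from 123 to 132, while Ccl3 and Ccl5 still ranged from 310 to 482 and from 595 to 746.

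Among 23 measured cytokine genes 12 were detected. Ifng had the highest mean and was above the next gene, Mif, in 2 of the 3 libraries. Ifng, interferon gamma, stood at 105, 67.0 and 248 FPKM, a CV of 68.2%. Tnf stood at 6.76, 4.54 and 18.6 and Csf2 (GM-CSF) at 2.16, 1.34 and 5.06, with the same order of libraries as Ifng. Mif, a constitutive inflammatory factor, stood at 58.1, 67.3 and 55.0 and Tgfb1 at 16.7, 11.7 and 19.4. Il17a and Il22, cytokines of other innate lymphocytes, were listed at 0, and Il4, Il10, Il13 and Areg had no value over 0.758.

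Cytokine receptors were led by Il2rb, given above, and Il2rg, chains of the interleukin 15 receptor. Of 29 measured, 22 were detected. Il2rg, the common gamma chain, stood at 94.0, 95.9 and 90.4 FPKM, and Ifngr1, a chain of the interferon gamma receptor, came next at 65.1, 68.6 and 83.9. The interleukin 18 receptor chains followed, below Ifngr1 in all 3 libraries and by exon-union level, with Il18rap and Il18r1 at 56.4, 54.0 and 55.4, and at 51.0, 49.0 and 49.5, and Il12rb2 at 37.8, 47.7 and 45.9. The last is the signalling chain for interleukin 12, and its partner Il12rb1 was lower in each library, at 4.37, 3.53 and 4.86. Il2ra, the high-affinity chain for interleukin 2, stood at 1.0, 0.728 and 1.21, far below Il2rb. Il7r, a receptor of immature NK cells and other innate lymphocytes, stood at 12.4, 33.6 and 31.6, with Ctrl replicate 1 alone low. Downstream, Jak1 (122, 124 and 146) and Stat4 (70.8, 59.5 and 72.8) led the 17 JAK, STAT and SOCS genes, and all but 1 of the 17 were detected. Jak3, the kinase bound to the common gamma chain, stood at 1.97, 1.61 and 1.11, with an exon-union level of 8.42. Stat5b stood at 4.07 and Stat5a at 2.08 FPKM at the mean, and Stat5b was higher in all 3 libraries. Socs3, a feedback inhibitor, stood at 12.4, 11.7 and 45.02, again with Ctrl replicate 3 highest.

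Homing receptors showed both marrow-retaining and exit genes. Of 21 measured, 18 were detected. Selplg, the P-selectin ligand, stood at 82.3, 96.9 and 101 FPKM. Cxcr4, which holds cells in marrow, stood at 26.3, 26.5 and 32.7 and Cxcr3, an inflammatory chemokine receptor, at 52.0, 39.6 and 39.8. S1pr5, the receptor by which mature NK cells leave marrow, stood at 9.50, 23.4 and 15.0, below Cxcr4 in every library. Cx3cr1, a receptor of mature NK cells, stood at 2.15, 3.36 and 2.53. The 13 detected integrin chains had means from 2.31 to 55.9 FPKM and a median CV of 10.4%. Itgb2, Itgb1, Itga4, Itga2 and Itgal lay close together, with means between 44.9 and 55.9. The list also held talin, kindlin-3 and the ligands Icam1 and Icam2, and of the pairs of neighbours among its 17 detected members 8 of 16 kept their order in all 3 libraries. By exon-union level the spread among the 5 close chains was wider, from 27.6 for Itga2 to 180 for Itgal, the alpha chain of LFA-1. Itgam, the chain CD11b of mature cells, stood at 9.69, 8.77 and 8.76, and at 53.6 per union of exons. Itga1 and Itgae, chains of tissue-resident lymphocytes, stood at 2.77, 2.67 and 1.48, and at 1.303, 0.233 and 0.0959.

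Genes of immature and of mature NK stages were present side by side. Of 19 measured immature-stage genes 17 were detected, with a median of 36.6 FPKM, and of 21 mature-stage genes 20, with a median of 33.5. Thy1, a surface glycoprotein, stood at 191, 151 and 229, Cd27 at 59.0, 53.9 and 58.6, and Tcf7 at 37.7, 38.6 and 46.5. On the mature side, Ly6c2, an antigen of mature cells, stood at 116, 195 and 111 FPKM and Spn (CD43) at 54.0, 45.8 and 43.8. Their order turned with the length, with exon-union levels of 40.9 for Ly6c2 and 60.4 for Spn. Zeb2, a factor of terminal maturation, stood at 5.23, 5.31 and 5.21. Cd27 exceeded Klrg1 and Itgam in all 3 libraries and by both lengths, with an exon-union level of 117 against 24.3 for Klrg1 and 53.6 for Itgam. Klf2, which controls egress, stood at 72.5, 32.8 and 117. Kit and Cd34, genes of progenitors, were low at 3.30, 2.62 and 2.096, and at 0.255, 1.196 and 0.

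**Figure D3:**
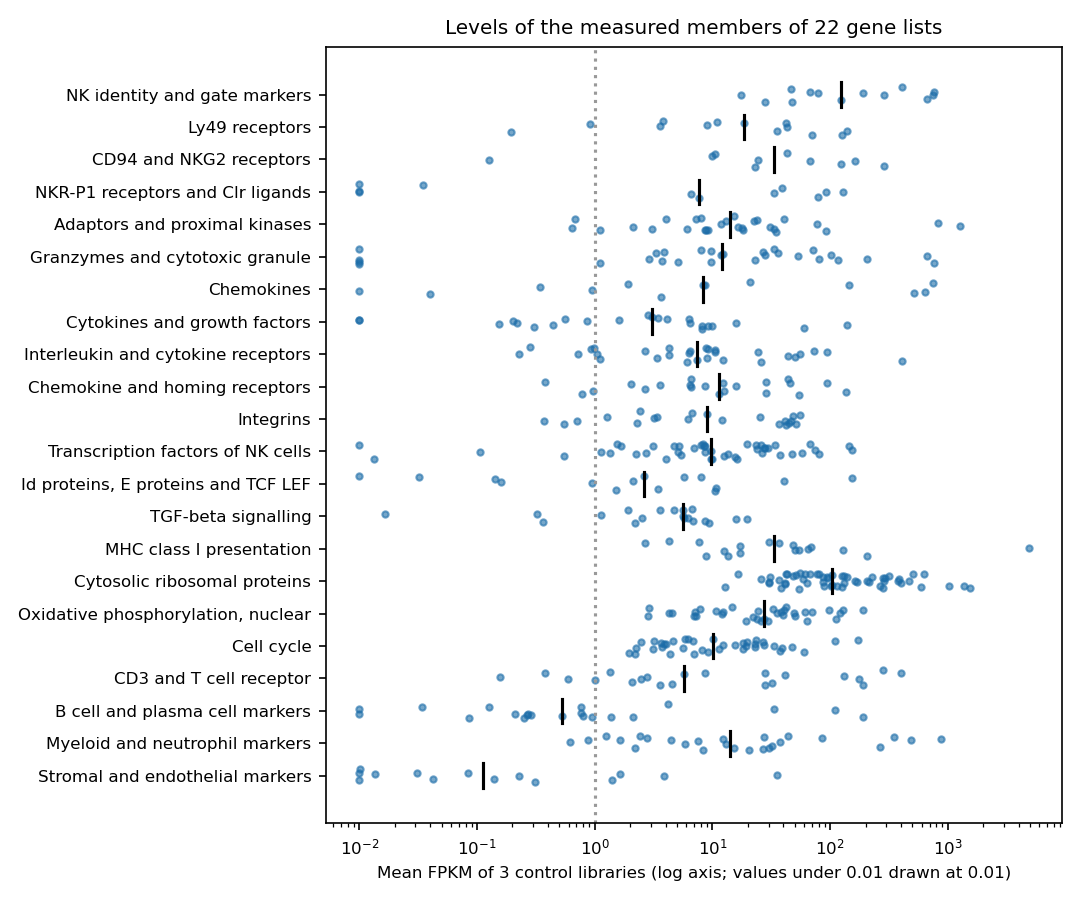
Mean FPKM (log axis) of every measured member of 22 gene lists, 1 point a gene; black bars are medians over all measured members and the dotted line is FPKM 1. NK identity genes all lie above 10, while B cell and stromal markers lie mostly below 1.

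Of 46 transcription factors of NK cells 39 were detected. Id2, the inhibitor of E proteins on which NK development depends, had the highest mean FPKM, at 124, 163 and 170 (152 ± 24.97, rank 98). It was not set apart from Klf6, a zinc finger factor with 140, 78.6 and 216, which was above it in 2 of the 3 libraries. By exon-union level Id2 had 79.3 and came after Ikzf1 (148), Klf6 (139), Stat4 (98.7), Eomes (92.0) and Elf4 (81.9). Tcf7, the gene of TCF-1, had a mean of 40.9 ± 4.82 at rank 503, and an exon-union level of 130 at rank 173, so the order of Id2 and Tcf7 turned with the length used. The alleles of Id2, or of Id2 and Tcf7, were floxed in these mice, and gene totals do not show what floxing does to either transcript. Id3, another Id protein, stood at 1.70, 2.93 and 1.66, Id1 at 1.74, 0 and 1.08, and Id4 was listed at 0. Among E proteins, the partners that Id proteins hold, Tcf12 (HEB) stood at 10.04, 9.75 and 12.1, Tcf3 (E2A) at 2.64, 2.84 and 2.33, and Tcf4 (E2-2) at 1.59, 1.14 and 1.86. This order held in every library. By exon-union level Tcf3, at 20.3, passed Tcf12, at 9.23. Lef1, a relative of TCF-1, stood at 5.87, 4.35 and 6.94, below Tcf7 in all 3, and Tcf7l1 and Tcf7l2 had no value over 0.369.

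Of factors shared with other lymphocytes, Stat4, Ikzf3, Elf4, Irf2, Ets1, Foxo1, Ikzf1 and Runx3 lay between 26.0 and 67.7 FPKM at the mean. Nfil3, needed for NK commitment, stood at 14.3, 15.9 and 41.7, Gata3 at 6.88, 6.99 and 10.02, and Zfp683 (Hobit) at 6.17, 2.87 and 6.33. Zeb1 had no value over 0.0121. Ctrl replicate 3 was highest for 22 of the 39 detected factors (56.4%, against 35.4% of detected protein-coding genes). The factors with large excess there were Bhlhe40 (50.5, 39.5 and 150), Nfil3, Klf2, Klf6 and Kdm6b (9.80, 7.50 and 29.1), of which Klf6 stands also in the immediate early list. Of 19 genes of TGF-beta signalling, a brake on NK cells, 14 were detected. Smad3 led at 17.7, 17.5 and 23.9, the receptor Tgfbr2 stood at 9.43, 9.37 and 9.31 and Tgfbr1 at 3.62, 3.20 and 3.90, while the inhibitor Smad7 stood at 3.57, 4.44 and 12.5.

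Survival genes were led by the anti-death members Mcl1 (74.1, 98.4 and 92.4 FPKM) and Bcl2 (57.4, 58.3 and 65.4). The relative Bcl2l1 stood at 1.39, 3.08 and 1.77, and the death-promoting Bcl2l11 (BIM) at 9.61, 6.60 and 11.9. All of 18 measured genes of MHC class I presentation were detected. After B2m came the heavy chains H2-D1 (185, 185 and 246) and H2-K1 (116, 120 and 150), and the transporter genes Tap1 and Tap2 stood at 9.52, 9.84 and 7.32, and at 4.78, 4.10 and 4.05. By exon-union level H2-K1, at 519, passed H2-D1, at 427.5. Class I heavy chains are near-identical in parts, so B2m and the heavy chains cannot be compared closely. The list kept 146 of 153 member pairs in the same order in all 3 libraries.

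Of cytosolic ribosomal protein genes, 57 were listed, which is not the whole family (Rpl37a is not among them). All of the 57 were detected, 30 of them at 100 or more. Their summed FPKM was 10320, 14050 and 13270. Ctrl replicate 1 was the lowest library for 43 of 57, with a median ratio of 0.762 to the mean of the other 2. Many have processed copies in the genome, and 78.1% of the pairs among them kept their order by exon-union level. All 35 nuclear oxidative phosphorylation genes were detected with a median of 27.5 FPKM, led by Cox8a, a cytochrome oxidase subunit, at 183, 195 and 188. By exon-union level another subunit, Cox6a1, passed it with 220 against 166. Glycolysis was lower, with a median of 6.93 over 18 detected of 24. Gapdh stood at 54.0, 37.7 and 43.5, Ldha at 53.7, 29.8 and 34.0, and the glucose transporters Slc2a1 and Slc2a3 at 12.6, 12.3 and 20.04, and at 8.34, 6.16 and 8.84.

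Mitochondrial ribosomal RNA held 28.7%, 29.6% and 25.7% of the reads, and 44.0%, 51.5% and 40.3% of summed FPKM, while nuclear protein-coding genes held 65.7%, 64.3% and 68.5% of reads. Among mitochondrial messages mt-Co1 was highest at 6829, 6955 and 6158. Not every one was counted: mt-Co3, mt-Atp6, mt-Atp8 and mt-Nd4l were listed at 0 in all 3 libraries and mt-Co2 at 0, 0.105 and 0. All cells with mitochondria use these genes, so a value of 0 in this table does not show that a gene was silent. Of non-coding genes outside ribosomal and transfer RNA, Malat1, a nuclear RNA, stood at 1077, 1210 and 1129, AW112010, a transcript of activated lymphocytes, at 599, 865 and 569, and Rn7sk, which restrains transcript elongation, at 536, 738 and 610. A short gene of microRNA class, Gm23935, had 100400, 29080 and 97590.

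Genes of T cells were present but uneven. Cd3e stood at 147, 139 and 111 FPKM, Cd3g at 23.1, 40.05 and 32.4, and Cd3d at 29.8, 28.0 and 26.6. The receptor constant segments Trbc1 (427, 447 and 318), Trbc2 (262, 297 and 287) and Trac (141, 194 and 190) stood among the highest genes outside the protein-coding class. Of the other members, Thy1 (given above), the gamma segment Tcrg-C1 (53.2, 33.6 and 36.8) and Cd28, a costimulatory receptor (18.9, 16.2 and 48.0), were not low. Lower ones were Cd5 at 3.64, 4.25 and 5.75, Cd8a at 2.94, 3.54 and 1.86, Cd4 at 3.50, 2.60 and 1.36, and Themis at 0.4198, 1.02 and 0.349. Of the list 15 of 21 measured were detected, with sums of 1327, 1376 and 1316. NK cells transcribe several of these genes themselves, and the part of T cells was not tested. For B cells, Ms4a1, Pax5 and Cd79a were at or near 0, the highest value among them being 1.52. Yet the heavy chain constant gene Ighm stood at 246, 160 and 164 and the light chain gene Igkc at 265, 57.8 and 7.97. Of 14 stromal and endothelial markers 2 were detected. Vcam1, also found on macrophages of erythroid islands, stood at 27.1, 61.4 and 16.9, and Pecam1, an adhesion molecule of endothelium and leukocytes, at 4.48, 3.79 and 3.46. Cxcl12 (0.620, 4.30 and 0.0362) and Sparc (1.31, 2.83 and 0.0725) were highest in Ctrl replicate 2, and the other 10, Col1a1, Cdh5 and Kdr among them, had no value over 0.772.

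Myeloid and red cell transcripts were abundant in all 3 libraries, and most were highest in Ctrl replicate 2. Hbb-bs, adult beta globin, stood at 345, 2174 and 301 FPKM, and Hba-a1, an alpha globin, at 50.1, 445 and 41.6. Ppbp and Pf4, chemokines of platelets, stood at 3.54, 94.6 and 2.16, and at 32.5, 181 and 12.7. Ctrl replicate 2 was the highest library for 16 of 16 detected erythroid and megakaryocyte markers, with sums over the list of 988, 5158 and 799. Of 21 detected myeloid markers it was the highest for 15, and Ctrl replicate 1 for the other 6, among them Ctsg, a neutrophil protease, at 28.4, 12.9 and 4.71. S100a8 and S100a9, the calprotectin chains of neutrophils, stood at 668, 1680 and 295, and at 456, 787 and 207. The macrophage lysozyme gene Lyz2 stood at 390, 484 and 165. Ctrl replicate 3 was lowest for 20 of 21 detected myeloid markers, with sums of 2295, 3806 and 981. Alpha and beta globins have near-identical copies, so the level of each copy is uncertain.

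Of 15 detected basophil, mast cell and eosinophil markers, 10 were highest in Ctrl replicate 1 and 5 in Ctrl replicate 2. Prss34 and Mcpt8, proteases of basophils, stood at 290, 160 and 54.9, and at 191, 125 and 54.7 FPKM, ranks 87 and 132. Prg2, the major basic protein of eosinophils, stood at 49.0, 25.5 and 0.293. Fcer1a, a chain of the IgE receptor, stood at 57.2, 47.3 and 17.0. Ctrl replicate 3 was lowest for 12 of the 15 detected markers, with sums of 737, 497 and 201. Siglech, the defining marker of plasmacytoid dendritic cells, was near 0 at 0.577, 0.247 and 0.253, while Itgax (CD11c), which NK cells also express, stood at 33.5, 22.1 and 20.98. Other members of the dendritic cell list were not all low. Cd74 stood at 41.1, 39.7 and 18.96 and the class II gene H2-Aa at 23.5, 21.6 and 13.25, while Flt3 and Clec9a stayed below FPKM 1. Ctrl replicate 3 was lowest for 8 of the 10 detected members, against 2363 of 7836 detected protein-coding genes. What share of each library came from these other cells was not tested.

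Immediate early genes, switched on within minutes of a stimulus, set Ctrl replicate 3 apart. Zfp36, which destabilises cytokine messages, stood at 378, 232 and 998 FPKM, Fos at 114, 68.5 and 261, Junb at 54.4, 50.8 and 230, and Nr4a1, a receptor-induced nuclear factor, at 14.3, 7.26 and 68.7. Ctrl replicate 3 was highest for 24 of 26 detected members, with a median ratio of 2.49 to the mean of the other 2. Ctrl replicate 2 was lowest for 21 of 26, and the sums were 1668, 1068 and 3667. The other 2, Ier3 and Myc, were highest in Ctrl replicate 1. Between the other 2 libraries the list also differed, so leaving out Ctrl replicate 3 does not level it. Ifng, Tnf, Ccl3 and Xcl1, given above, were highest in the same library.

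Cell cycle genes were present in every library and highest in Ctrl replicate 1. Mki67, the proliferation antigen, stood at 235, 160 and 123 FPKM, Top2a, a topoisomerase of dividing cells, at 51.9, 31.3 and 32.9, and Ube2c, which drives mitotic exit, at 63.1, 46.9 and 32.2. All 39 measured members were detected and 28 were highest in Ctrl replicate 1. Hmgb2, a chromatin protein of cycling cells, was the next highest gene at 137, 90.8 and 100. Interferon-stimulated genes went another way, with 21 of 31 detected members highest in Ctrl replicate 2 and 21 lowest in Ctrl replicate 3. Isg15, a ubiquitin-like modifier, stood at 13.5, 29.3 and 8.92, and Ifit3 at 5.13, 8.08 and 1.12. Most were modest in level, with a median of 6.92.

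**Figure D4:**
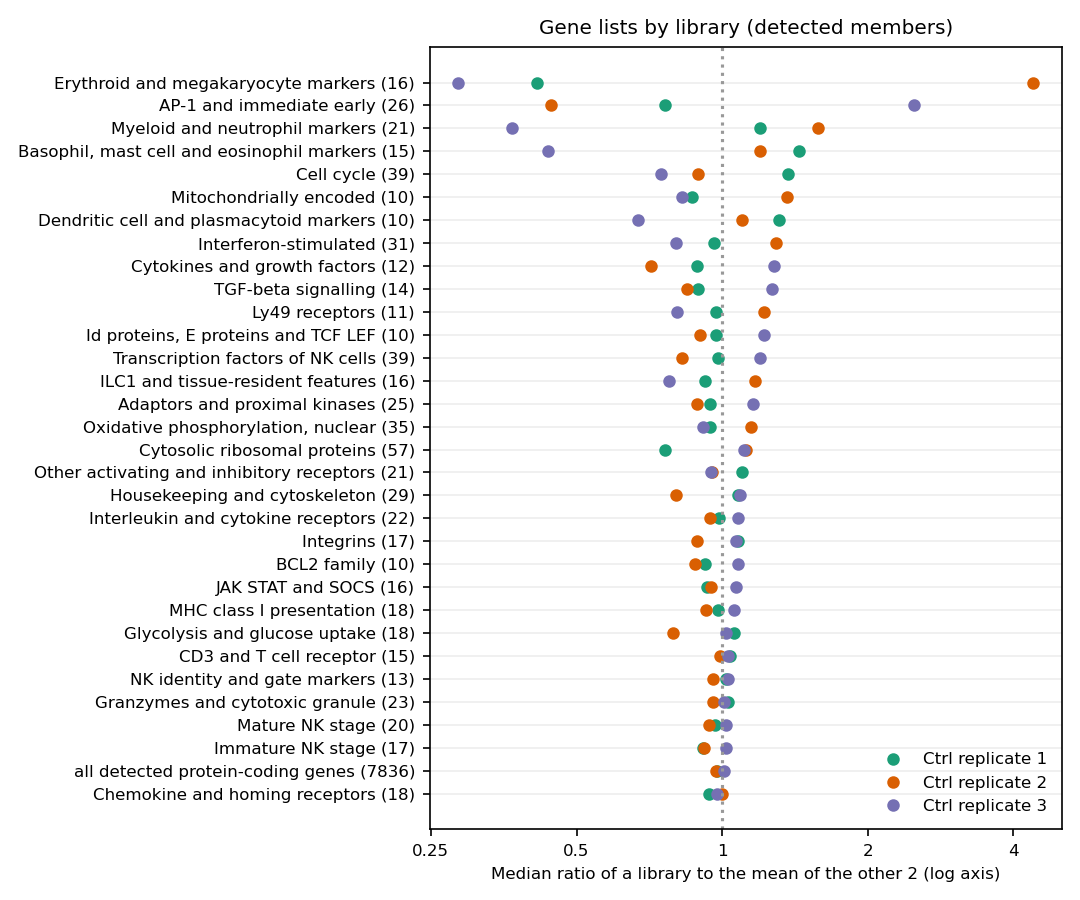
For each list with at least 10 detected members (number in brackets), the median over members of the ratio of 1 library to the mean of the other 2, on a log axis; 1 coloured point a library. Erythroid markers reach 4.4 in Ctrl replicate 2 and immediate early genes 2.49 in Ctrl replicate 3, while NK identity genes lie between 0.958 and 1.03.

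Sex-linked transcripts, chosen after their values were seen, separated Ctrl replicate 1 from the other 2. Xist, the RNA of X inactivation, stood at 0.0664, 192 and 172 FPKM. Ddx3y stood at 13.9, 0 and 0, Eif2s3y at 7.99, 0 and 0, and Kdm5d at 5.33, 0 and 0, all Y-linked. Reads behind Ddx3y numbered 1049 in Ctrl replicate 1. The labels give no sex, so in this group sex and library cannot be told apart for any gene that sets Ctrl replicate 1 apart.

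Across the 7836 detected protein-coding genes, Pearson's r of log2(FPKM + 1) was 0.932 between Ctrl replicates 1 and 2, 0.948 between 1 and 3, and 0.919 between 2 and 3; these are correlations across genes of libraries that share their composition of abundant genes. Over the protein-coding genes with a mean of 1 or more, a larger set, the median CV was 28.9% for 4632 genes between 1 and 5 FPKM, 19.7% from 5 to 20, 16.6% from 20 to 100 and 18.3% at 100 or more. Counting error alone would give 6.27%, 3.67%, 2.36% and 1.34%, each smaller than the spread measured. Of 2425 protein-coding genes with a mean of 10 or more, 329 (13.6%) ranged over 2-fold. Of these 79 were highest in Ctrl replicate 1, 145 in Ctrl replicate 2 and 105 in Ctrl replicate 3. The 12 with the highest CV were Ppbp, Fabp4, Hba-a1, Ifitm2, Hba-a2, Pf4, Blvrb, Hbb-bs, Nr4a1, Csrnp1, Cd5l and Rgcc. Of these 8 were highest in Ctrl replicate 2 and 3 in Ctrl replicate 3. Ifitm2, an interferon-induced membrane protein, was highest in Ctrl replicate 1, at 393, 67.9 and 16.7. Among the 8 with the lowest CV were Emc3, Vcpip1, Actr1b, Frrs1, Hnrnpa2b1, Ngdn and Arhgef3. Emc3, part of a membrane insertion complex, stood at 20.5, 20.5 and 20.6, and Hnrnpa2b1, an RNA-binding protein, at 120, 118 and 118. Gapdh, often used as a reference, had a wider range than any of these.

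**Figure D5:**
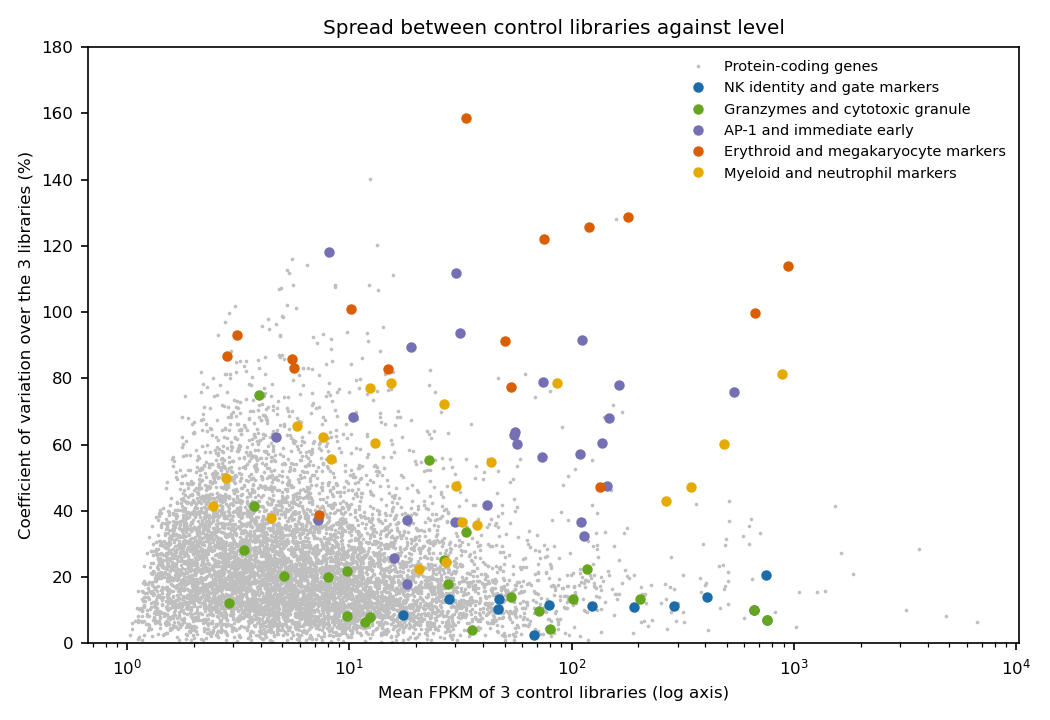
Coefficient of variation over the 3 libraries (%) against mean FPKM (log axis) for detected protein-coding genes (grey) with 5 lists in colour. NK identity genes lie low, with a median of 11.3%, and erythroid markers high, with a median of 92.2%.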

How the data were processed

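The deposited table gives FPKM per Ensembl gene ID for 12 libraries. The authors made these FPKM values with Trimmomatic 0.33, TopHat2 2.1.0, HTSeq 0.6.1 and edgeR (no version given) on mm10, per the submitters' processing notes; the annotation, strand setting and gene lengths are not given in the sources used here. Libraries were made with the Nugen Ovation Ultralow system, per the labels' protocols.

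Only the 3 Ctrl columns are described. A gene's values step by a fixed amount per read, and all 12 columns served to find that step. Whole reads were recovered for 23704 of the 23707 genes above 0, and these summed to 99.8% of each control library's size. Symbols, biotypes and exon unions came from GENCODE M21 (GRCm38) for 32938 of 37991 IDs. Exon-union levels are recovered reads scaled to the length of the exon union and to library size, an alternative chosen after seeing the data. The implied length equalled the exon union for 0.3% of genes with several transcripts and the exons summed over transcripts for 30.6%, within 0.1%.

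Genes at FPKM 1 or more in all 3 libraries count as detected. Means, SDs and CVs are over n = 3, list medians are over detected members unless stated, and no test was run, since a single group is described. The members and gene lists were chosen with earlier results of these data known. Named genes are the 5 markers Ncr1, Klrb1c, Itga2, Ccl5 and Gzma, the 20 highest protein-coding and 5 highest non-coding genes, up to 8 highest members of a list with its defining members and those at 0, and the 12 most and 8 least variable genes with a mean of 10 or more. The remaining genes in the text were picked with their levels in view, and a few genes the rule covers are not reported here. Promoters are from RefSeq (GRCm38.p6), matched by symbol. Read recovery was tested on simulated data. The work used matplotlib 3.10.9, numpy 2.4.6 and pandas 2.3.3 under Python 3.11.15. Alternatives were other thresholds, scalings, ranks, pseudocounts and lengths, and leaving out each library.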

Additional observations from a re-analysis of the deposited data

How the results depend on the processing

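Leaving out each Ctrl library in turn gave 8088 to 8209 detected protein-coding genes against 7836. With fewer libraries to pass, this count could not fall. The share of the 20 highest nuclear genes was 15.3% to 16.5% against 15.7%. The median CV over genes with a mean of 1 or more was 16.0% to 20.9% against 23.2%. A CV over 2 libraries tends to a lower median than one over 3, so these values compare only with each other. The lowest CV, 16.0%, was without Ctrl replicate 2. At FPKM 5 or more, 3529 protein-coding genes were detected. Over every gene of the table the 20 highest held 71.5% of FPKM. The median CV was 26.1% after rescaling each library to the same sum, 18.5% at a mean of 5 or more and 35.6% with no filter. Median scaling moved none of 37 list levels, 37 list ranks or 40 gene ranks beyond the spread between libraries. Rescaling each library to the same sum multiplies all its values by 1 factor, since the libraries' FPKM summed to 518595, 463873 and 496487; it moved 36 of 37 list levels (NK identity from 124 to 252), 1 of 37 list ranks and 0 of 40 gene ranks. Leaving out Ctrl replicates 1, 2 and 3 moved 3, 12 and 13 of 37 list levels. The exon-union length, chosen after seeing the data, moved 27 of 37 list levels, 21 of 37 list ranks and 24 of 40 gene ranks beyond it. Ranking by recovered reads moved 37 of 40 gene ranks. No paired analysis was possible because a single group is described and no result comes from a test.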

Other observations

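Of 19 measured markers of ILC1 and tissue-resident lymphocytes 16 were detected, against 7836 of 20230 protein-coding genes. Their median was 5.73 FPKM, close to the median given above over detected protein-coding genes. The gamma receptor constant segment Tcrg-C4 led at 62.2, 90.3 and 59.0 FPKM in Ctrl replicates 1, 2 and 3, followed by Cxcr3. Cxcr6, a receptor of resident cells, stood at 8.93, 13.2 and 3.69, and Cd160, a receptor of intraepithelial lymphocytes, at 12.2, 9.56 and 7.93. Inpp4b, a lipid phosphatase, stood at 1.39, 1.21 and 2.105. Of 17 progenitor and ILC2 markers 4 were detected: Gata2, Gata3, Kit and Rora. Gata2 is also a basophil gene and stood at 16.3, 14.2 and 7.26, in the order of libraries seen for Prss34 and Mcpt8. Il5, Il13 and Areg, products of ILC2 cells, had no value over 0.509.

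Csrnp1, Rgcc and Gadd45b, genes outside the immediate early list, were likewise highest in Ctrl replicate 3, at 6.86, 4.41 and 35.8, at 5.24, 5.07 and 29.9, and at 6.63, 4.46 and 24.9 FPKM. The heat shock gene Hspa1a stood at 2.13, 10.4 and 21.7, with Ctrl replicate 1 lowest in place of Ctrl replicate 2. Cd5l, a product of macrophages, stood at 6.00, 27.6 and 3.31, and Ear2, a ribonuclease of eosinophils, at 11.2, 29.0 and 2.39, so Ear2 did not share the library order of the eosinophil gene Prg2. These genes were chosen after their values were seen.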
